A study of Mus musculus with 8 samples.

Results

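The genes described are the 8 subunit genes of the cytosolic chaperonin CCT (Tcp1, Cct2, Cct3, Cct4, Cct5, Cct6a, Cct7 and Cct8) and the genes of the mitochondrial chaperonin HSP60 and its lid HSP10 (Hspd1 and Hspe1). A peak of RNA bound by MBD5 or MBD6 was counted for a gene when its midpoint fell in the body of the gene on the same strand, in the GENCODE M21 annotation of the mouse genome build mm10. This gave 69 peaks among the 29555 of the study, in 9 of the 10 genes, and overlapping peaks merged into 26 sites. The peaks come from CLIP-seq (crosslinking, immunoprecipitation and sequencing), in which RNA is fixed to a protein with ultraviolet light and the fragments bound are recovered and sequenced. The cells were wild-type mouse embryonic stem (mES) cells that stably overexpressed the coding sequence of human MBD5 or human MBD6 with a 3xFlag tag from a lentivirus, under hygromycin selection. There were 2 CLIP libraries of each protein, and fragments were trimmed with RNase T1, which cuts RNA after G. An input group of each protein was not used here as samples of its own. The characteristics of the CLIP samples name the Flag antibody, whereas the extraction protocol names an MBD6 antibody, and other fields of the labels call the material embryos. By the study's methods the precipitated proteins were the tagged human ones, expressed beside the cells' own, and no untagged control was analysed here.

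Chaperonins are barrels that enclose unfolded proteins and release them folded as ATP is bound and hydrolysed. CCT, also called TRiC, is built of paired rings in which each of the 8 related subunits takes a fixed place, and it is needed for folding of actin and tubulin. Prefoldin hands it these clients. HSP60, with HSP10 as the lid, does the corresponding work inside mitochondria. MBD5 and MBD6 are known as partners of the PR-DUB complex, which removes ubiquitin from histone H2A, and their binding to RNA is what the CLIP libraries measured.

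The 4 peak lists held 5362 and 5388 peaks with Flag-MBD5 against 9218 and 9587 with Flag-MBD6. Library sizes estimated from the peak lists were 478790 and 500143 reads in the Flag-MBD5 pair, and 983918 and 1111742 in the Flag-MBD6 pair, a ratio of 2.14 between the proteins. The number of reads piled up at each summit, called summit reads here and given as RPM when divided by the library size and scaled to 1e6 reads, was solved from the deposited fold enrichment and p of the peak. No called peak had fewer than 5 summit reads in a Flag-MBD5 library or 6 in a Flag-MBD6 library. Replicates were compared at sites chosen by the libraries of the other protein, where the chi-square per degree of freedom was 0.496 for Flag-MBD5 (685 sites with both replicates, of 698 chosen) and 0.414 for Flag-MBD6 (277 of 278), below the noise of sampling. Chaperonin sites called in a single replicate are given as such. Each protein was therefore counted as 1 sample, the values of both libraries are given, and errors are 95% exact counting intervals. They cover counting error only, no test over libraries was made, and differences between the proteins cannot be told apart from differences between the cell populations and preparations. Of the marker genes checked against the labelled cell type, 7 of 12 embryonic stem cell markers (Pou5f1, Nanog and Sox2 among them) held an MBD6 region and 4 of 12 an MBD5 region, while none of 6 feeder fibroblast markers held either and 1 of 10 primitive endoderm markers, Lama1, held both. Of all protein-coding genes 13.8% held an MBD6 region and 7.8% an MBD5 region, so none of 6 feeder markers says little about the presence of such cells.

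The RNA at which the leading site of each gene began is printed here, because RNase T1 cuts at the 5′ edge of a fragment and peaks begin near it. Leading sites are those in most libraries, then with most reads. The capital is the base just before the site, where RNase T1 cuts if it is G, and the 29 small letters are the first bases of the site in the spliced GENCODE transcript, or in the snoRNA for Cct6a, with T for U. The 5′ end is the commonest of the site's peaks, or, where none repeats, that of the peak with most reads.

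Tcp1, exon 9, chr17:12922638-12923042, plus strand: Gaaggcgaagaaacttttgaagtgacgatg
Cct2, exon 9, chr10:117057708-117057893, minus strand: Gattccacagcaaaggttgcagagatagaa
Cct3, exon 9, chr3:88313240-88313424, plus strand: Gaccgacatcgagattacccgggaggagga
Cct4, exon 9, chr11:23000898-23001053, plus strand: Gaagattatggtggttaaggacgttgaaag
Cct5, exon 6, chr15:31593980-31594174, minus strand: Gtcatgtctgtggaggactacaaagccctg
Cct6a, snoRNA Gm23245 in intron 3, chr5:129789549-129789748, plus strand: Gaacacccaagtgtgctctgtagttccctt
Cct7, exon 6, chr6:85462030-85462197, plus strand: Gcagaggaagatgctggagaagtgtgcgat
Cct8, exon 11, chr16:87486139-87486291, minus strand: Gatgacatagaaagggcagtagatgatgga
Hspd1, exon 7, chr1:55081561-55081714, minus strand: Gtcataatcgccgaagacgttgacggagaa

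All of these 9 windows have G before the site. The 5′ ends of the peaks differed between libraries by 152 nt in Tcp1, 23 nt in Cct2 and 18 nt in Cct5, where no end repeated in Cct2 or Cct5, and by at most 7 nt in the others, of which Cct8 has a single peak; the windows are thus not fixed to the base. The coordinates are those of the merged peaks, which run past exon ends because reads were aligned without splicing and extended to 150 bp.

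The genes fell into 3 kinds by which libraries had peaks. Tcp1, Cct3, Cct5 and Cct6a held at least 1 site in all 4 libraries. Cct2, Cct4, Cct7 and Hspd1 held a region of at least 1 protein but no site in all 4 libraries. Cct8 and Hspe1 held no reproducible region. Regions of MBD5, that is merged peaks in both of its libraries, lay in 5 of the 10 genes (Tcp1, Cct3, Cct5, Cct6a and Cct7), against 7.8% of all 21951 protein-coding genes. Regions of MBD6 lay in 8 of the 10, all but Cct8 and Hspe1, against 13.8% of all protein-coding genes. The call in Cct7 rests on an overlap of 37 bp, and with a reciprocal overlap of 50% 7 genes held an MBD6 region. A site in all 4 libraries was found in 4 of the 10, against 7.35%. Among the 15122 protein-coding genes with bodies no shorter and no longer than those of the chaperonin genes, the shares were 7.23%, 12.6% and 6.86%. Protein-coding genes that the cells do not express are part of these backgrounds, and the abundance of the transcripts was not analysed here, so that binding and abundance cannot be told apart.

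Of the 26 sites, 10 were in all 4 libraries, 3 in 3, 7 in 2 and 6 in a single library. By protein, 10 sites had peaks of Flag-MBD6 only and 3 of Flag-MBD5 only. When every library was cut to the same length, the chaperonin genes held 10 Flag-MBD6 and 14 Flag-MBD5 peaks per library. They then held 7 MBD6 and 12 MBD5 regions. The cut removes the weakest Flag-MBD6 peaks by construction, so whether the order comes from the longer Flag-MBD6 lists was not tested. At the 10 sites of Flag-MBD6 only, depth alone would have given 4.84 to 8.16 reads in a Flag-MBD5 library. The fewest called anywhere in those libraries was 5, and whether the proteins differ at these sites was not tested. The number of sites per gene ranged from 5 in Cct5 through 4 in Tcp1, Cct3 and Cct7 to 1 in Cct4 and Cct8 and none in Hspe1, where the median over the 4269 genes with any site was 2. Of those genes, 13.4% held 5 sites or more.

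**Figure D1:**
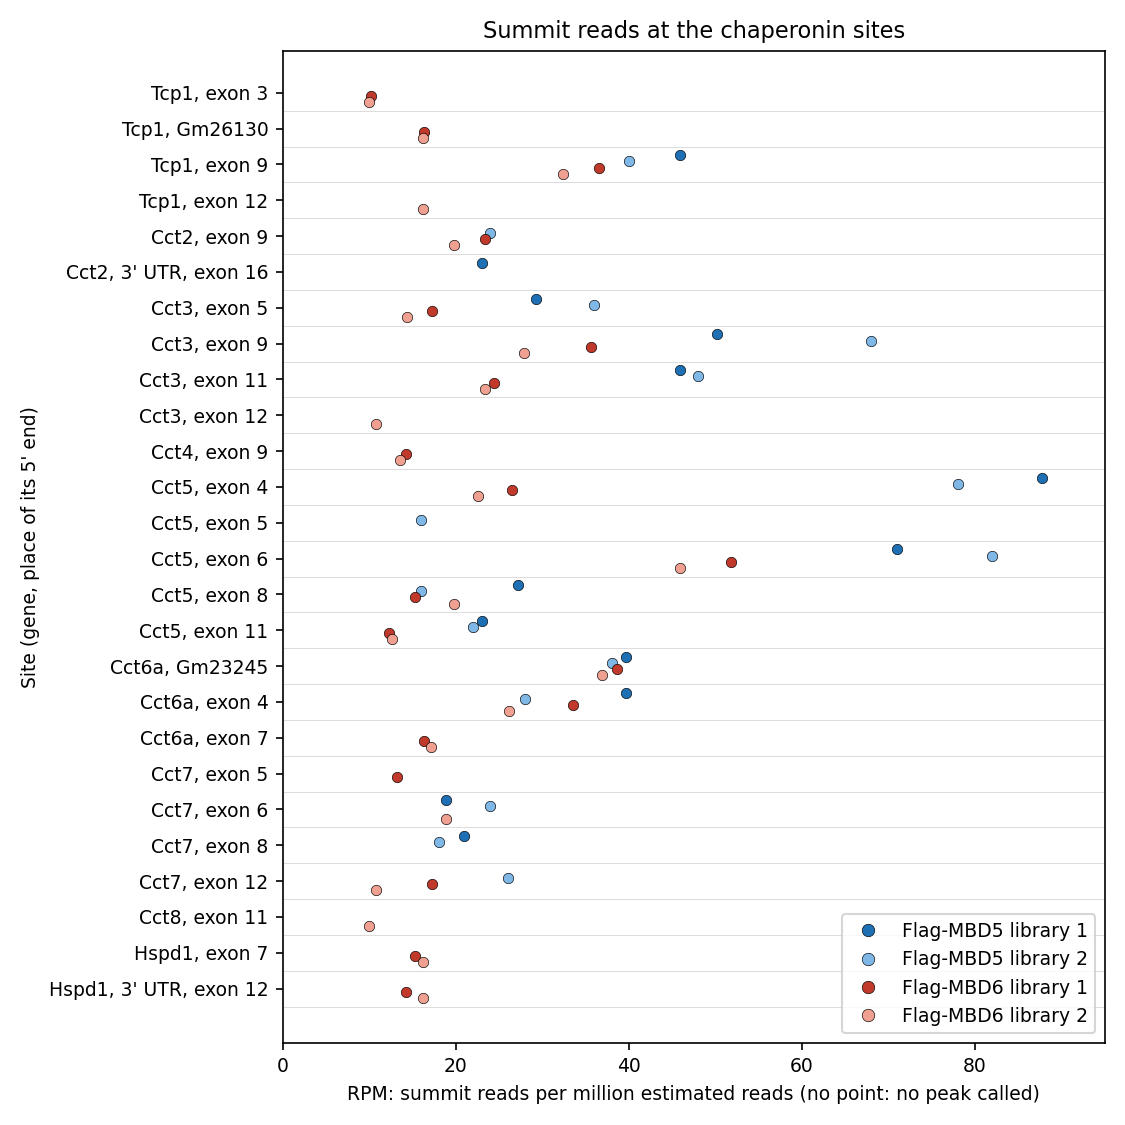
RPM, the summit reads scaled to the estimated reads of the library (horizontal axis), at the 26 chaperonin sites, ordered along each gene from its 5′ end; blue points are the Flag-MBD5 libraries, red points the Flag-MBD6 libraries, and a missing point means that no peak was called. The Cct5 exon 4 and exon 6 sites lie farthest right, between 71.0 and 87.7 in the Flag-MBD5 libraries.

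Cct5, which codes for the CCT epsilon subunit, held the site of highest fold enrichment in the family. It also held 4 of the 10 sites in all 4 libraries. At its exon 6 site the summit reads were 34 and 41 with Flag-MBD5 against 51 and 51 with Flag-MBD6. The deposited fold enrichment there was 25.1 and 33.2 with Flag-MBD5 against 34.1 and 31.5 with Flag-MBD6. Every library had its highest chaperonin enrichment at this site. The libraries overlap between the proteins on the fold scale but not in RPM. In RPM, Flag-MBD5 had 71.0 and 82.0 and Flag-MBD6 51.8 and 45.9. The fold adds 1 read to signal and background. At background rates as low as here, this lowers the fold more in the shallower Flag-MBD5 libraries, so the 2 scales are not alike. The ratio of Flag-MBD6 to Flag-MBD5 summit reads, divided by the difference in depth, was 0.635 (0.467 to 0.868).

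The exon 4 site of Cct5 leaned furthest to Flag-MBD5. It had 42 and 39 summit reads with Flag-MBD5 against 26 and 25 with Flag-MBD6, so that the deeper libraries had fewer reads. In RPM this was 87.7 and 78.0 against 26.4 and 22.5, with no overlap. The depth-scaled ratio was 0.294 (0.203 to 0.423), and 0.196% of the 3566 sites in all 4 libraries had a ratio as low or lower. The fold enrichment there was 9.48 and 12.9 with Flag-MBD5 against 4.59 and 5.41 with Flag-MBD6. It was lower than at exon 6 in every library, and the local background rate of the peak caller was higher, with 2.10 to 4.88 reads per 150 bp at exon 4 in the 4 libraries and 0.265 to 0.652 at exon 6. The first bases of this site, shown because its ratio was the lowest of the 10 chaperonin sites in all 4 libraries, are these; the peaks' 5′ ends there differed by up to 105 nt.

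Cct5, exon 4, chr15:31595538-31595822, minus strand: Gaacagctgctggaccgaggcatccaccca

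Cct5 carried further sites in exons 8 and 11. Exon 8 had 13 and 8 summit reads with Flag-MBD5 against 15 and 22 with Flag-MBD6, with a ratio of 0.823 (0.469 to 1.48). Exon 11, which holds the end of the coding sequence and the 3′ UTR, had 11 and 11 with Flag-MBD5 against 12 and 14 with Flag-MBD6, with a ratio of 0.552 (0.301 to 1.02), and the site began 97.2% of the way along the coding sequence. Both intervals include 1. A site in exon 5 was called in the second Flag-MBD5 library alone, with 8 summit reads, where depth alone would have given 16.8 in a Flag-MBD6 library and 6 was the fewest called there.

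Cct3, the CCT gamma subunit, held 3 sites in all 4 libraries, and all of them leaned to Flag-MBD5. Exon 9 was the strongest, with 24 and 34 summit reads with Flag-MBD5 against 35 and 31 with Flag-MBD6. The fold enrichment there was 19.3 and 24.5 with Flag-MBD5 against 22.3 and 18.9 with Flag-MBD6. The site began at the first base of the exon, so that its position depends on the unspliced alignment. Exon 11 had 22 and 24 summit reads with Flag-MBD5 against 24 and 26 with Flag-MBD6. Exon 5 had 14 and 18 with Flag-MBD5 against 17 and 16 with Flag-MBD6. These nearly equal counts in libraries of unequal depth gave depth-scaled ratios of 0.532 (0.368 to 0.770) in exon 9, 0.508 (0.333 to 0.775) in exon 11 and 0.482 (0.287 to 0.809) in exon 5. In none of the 3 sites did the proteins overlap in RPM. A site in exon 12 was called in the second Flag-MBD6 library alone, with 12 summit reads. The exon 5 window occurs unchanged in the pseudogenes Cct3-ps1 and Gm11516, neither of which held a peak.

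Tcp1, the CCT alpha subunit, had its leading site across exon 9 and the snoRNA in the intron that follows it. The summit reads were 22 and 20 with Flag-MBD5 against 36 and 36 with Flag-MBD6, the ratio was 0.801 (0.540 to 1.20), and the merged site was 405 bp wide. Its summit lay in the snoRNA in 3 libraries and in exon 9 in the second Flag-MBD6 library, so the counts of the libraries are not of the same bases. Exon 3 had a site of 10 and 11 summit reads in the Flag-MBD6 libraries, and exon 12 had one of 18 in the second Flag-MBD6 library. Neither was called for Flag-MBD5, where depth alone would have given 4.91 and 7.92 reads and 5 was the fewest called.

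Cct6a, the CCT zeta subunit, held a snoRNA site and a site in exon 4 in all 4 libraries. Exon 4 had 19 and 14 summit reads with Flag-MBD5 against 33 and 29 with Flag-MBD6, at fold enrichments of 7.67 and 5.53 with Flag-MBD5 against 8.61 and 7.01 with Flag-MBD6. Its ratio of 0.878 (0.566 to 1.38) includes 1. Exon 7 had 16 and 19 summit reads in the Flag-MBD6 libraries, against 8.16 given by depth in a Flag-MBD5 library, and no Flag-MBD5 peak. GENCODE M21 lists this gene as a processed transcript, although RefSeq lists it as coding, so its exons count as non-coding in the shares given further on and its longest reading frame of 1236 nt served for codon positions.

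Cct7, the CCT eta subunit, had sites of low coverage. Exon 6 had 9 and 12 summit reads for Flag-MBD5 and 21 in the second Flag-MBD6 library, with no peak in the first. Exon 12 had 13 in the second Flag-MBD5 library and 17 and 12 for Flag-MBD6, but the Flag-MBD6 peaks overlapped by 37 bp only and the peak of the second library did not reach that of Flag-MBD5, so these counts are not of the same bases. Exon 8 was called in both Flag-MBD5 libraries, with 10 and 9, and in neither Flag-MBD6 library, where depth alone would have given 20.4 reads and 6 was the fewest called; it was the only chaperonin site found in both libraries of Flag-MBD5 and in none of Flag-MBD6. Exon 5 had 13 in the first Flag-MBD6 library alone.

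A pseudogene copy bears on these values. The window of the Cct7 exon 5 site occurs in the pseudogene Gm12180 with 1 mismatch, and all 4 libraries had a peak in Gm12180 that began 4 to 7 nt after the matching base. The window of the leading Cct7 site in exon 6 occurs in Gm12180 with 3 mismatches, inside the same peaks. Its summit reads were 25 and 22 with Flag-MBD5 against 39 and 48 with Flag-MBD6, more than at any site of Cct7 itself. Reads were allowed 3 mismatches, so how many of these reads came from Cct7 RNA was not tested.

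The other CCT genes had single sites or nearly so. Cct2, the beta subunit, had an exon 9 site with 12 summit reads in the second Flag-MBD5 library, against 23 and 22 with Flag-MBD6. It also had a site in the 3′ UTR with 11 in the first Flag-MBD5 library alone. At that 3′ UTR site depth alone would have given 24.1 reads in a Flag-MBD6 library, where 6 was the fewest called. Cct4, the delta subunit, had 14 and 15 in the Flag-MBD6 libraries in exon 9 and no Flag-MBD5 peak. Cct8, the theta subunit, had 11 in the second Flag-MBD6 library in exon 11 and no other peak. Depth alone would have given 6.78 reads at the Cct4 site and 4.84 at the Cct8 site in a Flag-MBD5 library.

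Hspd1, the mitochondrial chaperonin HSP60, had peaks of Flag-MBD6 only. Exon 7 had 15 and 18 summit reads and the 3′ UTR 14 and 18, at fold enrichments of 9.84 to 11.9. Depth would have given 7.69 and 7.45 in a Flag-MBD5 library, where 5 was the fewest called. The 29 bases of the exon 7 site are, however, identical in the pseudogene Hspd1-ps3, which is 98.95% identical to Hspd1 over 1722 nt. In both Flag-MBD5 libraries Hspd1-ps3 had a peak that began 0 and 2 nt from the matching base, with 13 and 11 summit reads. In the Flag-MBD6 libraries Hspd1-ps3 had wider peaks of 25 and 32 summit reads that began 429 nt before that base and ran across it. The aligner placed a read with equal matches once, so Hspd1 and Hspd1-ps3 cannot be told apart at this site, and the lack of a Flag-MBD5 peak in exon 7 cannot be read as a difference between the proteins. The window of the 3′ UTR site had no match in a pseudogene.

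Hspe1, the HSP10 lid, had no peak in any library. Matching of transcripts found 38 pseudogene copies of the 10 genes, of which 19 were of Hspd1 and 9 of Hspe1. Reads that matched more than 10 places were dropped by the authors, and whether this removed reads of Hspd1 or Hspe1 was not tested. Gm12180 and Hspd1-ps3 were the only copies with peaks, and 19 of the 26 windows had no match in a pseudogene even with 3 mismatches.

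Over the 10 sites in all 4 libraries, the depth-scaled ratio of Flag-MBD6 to Flag-MBD5 had a median of -0.76 on the log2 scale and ranged from -1.77 in Cct5 exon 4 to -0.04 in the Cct6a snoRNA. The interval lay below 1 at 5 sites, where 33.7% of the 3566 sites in all 4 libraries did, and above 1 at none, where 4.85% did. The 5 sites were the 3 of Cct3 and exons 4 and 6 of Cct5, so they come from 2 transcripts. Sites enter this set only with a peak in both Flag-MBD5 libraries, the shallower pair, so sites low in Flag-MBD5 are left out. The 10 chaperonin sites of Flag-MBD6 only are among those left out. This selection favours ratios below 1, in the chaperonin sites as in all sites, and by how much was not tested. All sites together had a median of -0.34 on the same scale. Scaled by that median instead of by the estimated depth, the chaperonin median became -0.42. On the deposited fold enrichment, which adds 1 read to both signal and background, it was 0.01 against 0.41 for all sites. The sign of the chaperonin median thus depends on the measure. Where the background rate is low, the added read lowers the fold more in a shallower library. At the Cct2 exon 9 site, for example, the second Flag-MBD5 library had 23.99 RPM and a fold of 10.27. The first Flag-MBD6 library had 23.38 RPM and a fold of 15.75. The 3 intervals of Tcp1 and Cct6a include 1, as do those of Cct5 exons 8 and 11. Differences between genes were not tested.

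**Figure D2:**
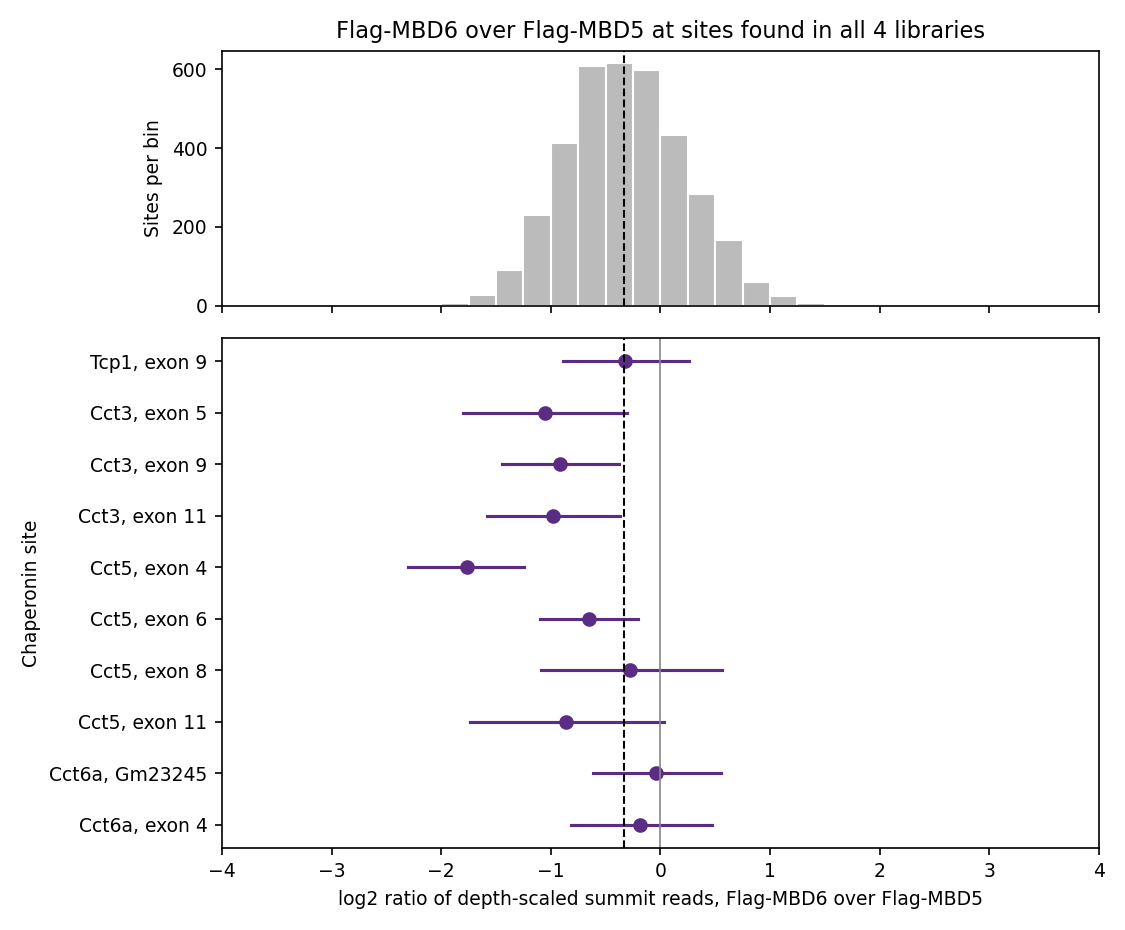
Log2 ratio of depth-scaled summit reads, Flag-MBD6 over Flag-MBD5 (horizontal axis in both panels): above, the number of sites per bin of 0.25 for all 3566 sites in all 4 libraries; below, each of the 10 chaperonin sites with its 95% counting interval. The grey line marks 0 and the dashed line the median of all sites at -0.34; the Cct5 exon 4 interval lies wholly left of that line, as do those of Cct3 exons 9 and 11.

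The introns of Tcp1 and Cct6a carry small nucleolar RNAs, which are processed from the spliced introns of host genes and guide the modification of other RNAs, and peaks lay on 3 of the 4 snoRNAs annotated there. Those named Snora are of the H/ACA class, which directs conversion of uridine to pseudouridine and ends with the box ACA 3 bases before the 3′ end. Gm23245 in Cct6a intron 3 (chr5:129789539-129789673, 135 nt) held the leading Cct6a site. It had 19 and 19 summit reads with Flag-MBD5 against 38 and 41 with Flag-MBD6, and the fold enrichment lay between 14.3 and 15.9 in all 4 libraries. The libraries overlapped in RPM, with 39.7 and 38.0 against 38.6 and 36.9, and the ratio was 0.971 (0.652 to 1.47). Every peak began inside the snoRNA, at most 17 nt from its first base. The ends of Gm23245 and Snora20, with the box letters in capitals where present, are printed because the box marks the class.

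Gm23245, first 30 bases: ttgcacagtgaacacccaagtgtgctctgt
Gm23245, last 30 bases: tttcaatgtattcagaaagtcagcACAcca
Snora20, first 30 bases: tttcccattaatttgctgctctagtctgtc
Snora20, last 30 bases: ttttgtctctcgtacatggtctagACAttg

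Snora20 in Tcp1 intron 9 (chr17:12922790-12922917, 128 nt) was overlapped by the leading Tcp1 site in all 4 libraries. The peak of the second Flag-MBD5 library began at its first base, and those of the other libraries began in exon 9. Gm26130 in Tcp1 intron 4 (chr17:12919585-12919722, 138 nt), whose end has AAA in place of ACA, held a site of 16 and 18 summit reads in the Flag-MBD6 libraries only, where depth alone would have given 7.94 in a Flag-MBD5 library. Snora15 in Cct6a intron 10 had no peak. Among all sites in all 4 libraries 5.38% began in a snoRNA, and 1 of the 10 chaperonin sites did. The leading Tcp1 site, placed by its commonest 5′ end, is counted under exon 9 and not under snoRNAs.

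**Figure D3:**
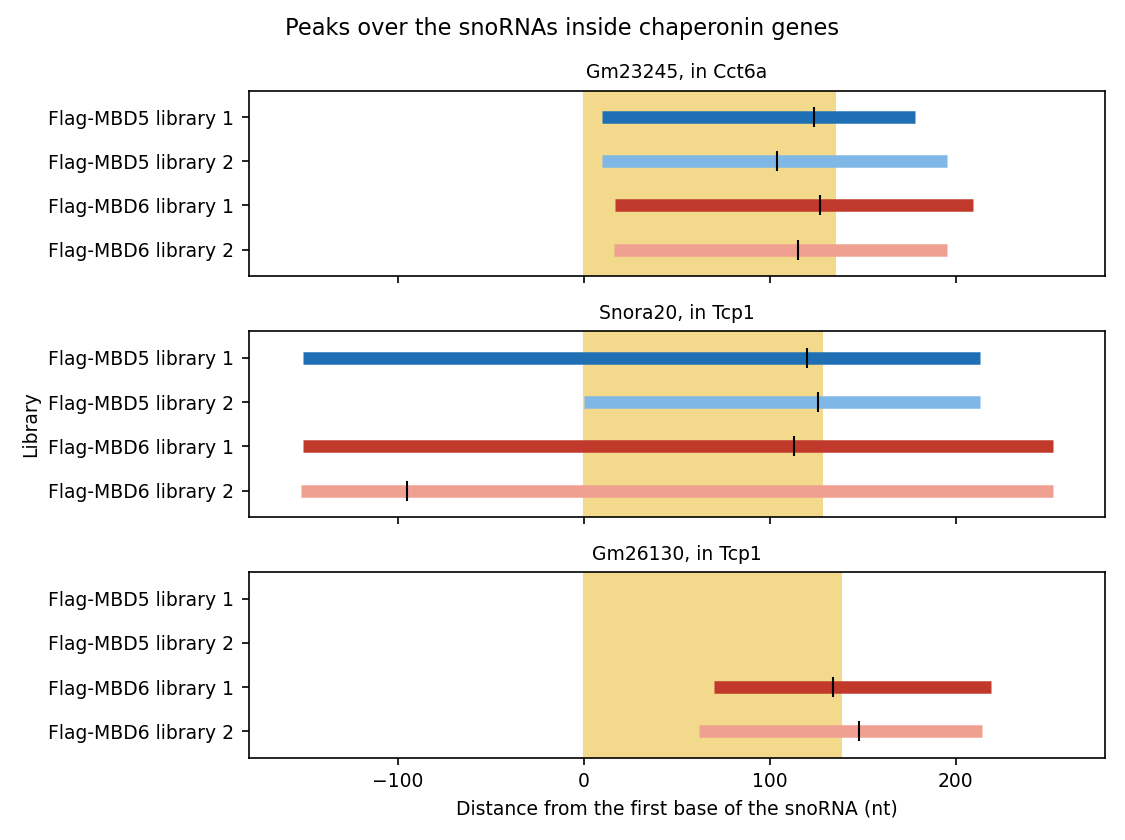
Extent of the peaks over the snoRNAs Gm23245, Snora20 and Gm26130 in each library; the horizontal axis is the distance in nt from the first base of the snoRNA, the shaded band is the snoRNA, bars are peaks and black ticks their summits. The 4 bars over Gm23245 begin inside the snoRNA, while 3 of the 4 over Snora20 begin in exon 9 of Tcp1.

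Apart from the snoRNAs, the sites began in exons. Of the 26 sites 20 began in coding sequence, 2 in the exons of Cct6a, 2 in 3′ UTRs and 2 in snoRNAs. Of the 10 sites in all 4 libraries 8 began in coding sequence (80%, exact interval 44.4 to 97.5%), where 73.3% of all sites in all 4 libraries did. The 22 windows of 29 nt in reading frames, those of Cct6a included, held 34.0% A, 29.1% G, 17.1% C and 19.7% U. The 9097 other coding sites of the study held 38.0% A, 25.6% G, 21.1% C and 15.3% U, so single bases differed by about 4 percentage points. The chaperonin purine share of 63.2% stood above the 55.4% of the whole reading frames of the 10 genes and beside the 63.6% of the other coding sites. G stood before 17 of the 22 windows (77.3%), against 77.2% of the other sites. The windows held 19 CpG dinucleotides in 638 bases, the other coding sites 8135 in 263813 and the reading frames 335 in 14685. No test of composition was made.

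The 8 CCT proteins are related along their whole length, which allows sites in different genes to be set on a common scale. The longest reading frame used for Cct6a had 412 codons, however, where the frames of the other subunits had 535 to 556. Cct6a was thus aligned over a shorter length. In an alignment of the translated reading frames, with 618 columns and pairwise identities of 22.6 to 38.0% (median 31.3%, 28 pairs), the 21 coding sites of CCT genes were placed by codon; this comparison was chosen after the sites had been seen. Sites of 4 subunits began within columns 285 to 292, namely Cct3 exon 9 (codon 254), Cct5 exon 6 (codon 268), Cct2 exon 9 (codon 259) and Cct6a exon 7 (codon 253). These include the leading sites of Cct2, Cct3 and Cct5, of which the 5′ ends in Cct2 and Cct5 varied between libraries by 23 and 18 nt. The first bases of the Cct6a site are given beside the windows of the other 3 above.

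Cct6a, exon 7, chr5:129791815-129791982, plus strand: Gcagaagagagagaaaaactagtaaaggct

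The 4 windows matched each other at 4 to 11 of 29 bases (median 7 over 6 pairs), no more than the 22 coding windows among themselves (2 to 16, median 8, over 231 pairs). Exon 5 of Cct3 (column 102) and exon 3 of Tcp1 (column 105) began just before the ATP-binding motif GDGTT, which begins at column 112 in the 7 subunits where it was found, all but Cct8. Exon 9 of Cct4 and exon 8 of Cct7 began at columns 353 and 354, and exon 11 of Cct3 and exon 9 of Tcp1 at columns 377 and 384. The Tcp1 column does not hold for the second Flag-MBD5 library, whose peak began in the snoRNA. In all, 10 of the 21 sites had a site of another subunit within 10 columns. How often unrelated sites would fall together was not tested. A further motif, NDGAT, was found at column 81 in Tcp1, Cct2, Cct4, Cct5 and Cct7, and no site began within 10 columns of it.

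**Figure D4:**
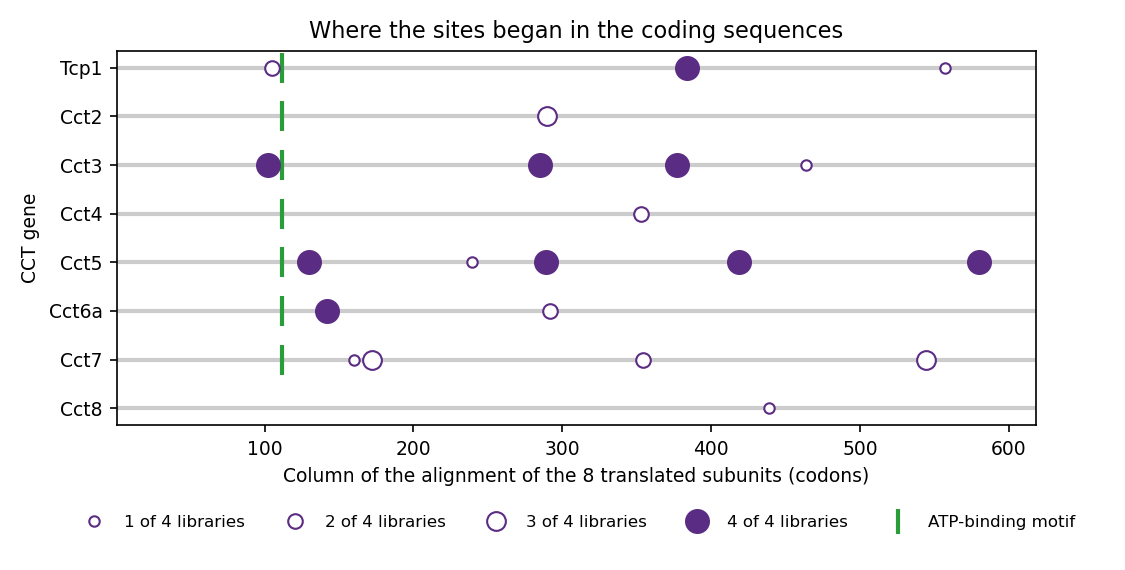
Codon at which each of the 21 coding sites began (horizontal axis, columns of the alignment of the 8 CCT subunits), with a row for each gene; point size gives the number of libraries, filled points are sites in all 4, and green ticks mark the ATP-binding motif GDGTT. Points of Cct2, Cct3, Cct5 and Cct6a stand above each other at columns 285 to 292. The filled Tcp1 point stands for a site whose peak in the second Flag-MBD5 library began in a snoRNA.

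Genes that work with the chaperonins held regions in some cases. Of 9 co-chaperones of CCT, which deliver or release clients, 2 held MBD5 regions and 4 MBD6 regions, where 7.8% and 13.8% of all protein-coding genes did. Pfdn1, a prefoldin subunit, had 26 and 27 summit reads with Flag-MBD5 against 46 and 50 with Flag-MBD6, the most of this list. Of 15 clients of CCT, 3 held MBD5 regions and 5 MBD6 regions, against the same 7.8% and 13.8%. Tubb5, a beta tubulin, had 62 and 68 with Flag-MBD5 against 81 and 85 with Flag-MBD6, more than any chaperonin site, at fold enrichments of 7.59 to 8.38. Of 9 genes of mitochondrial protein quality control, 3 held regions of either protein (Hspa9, Trap1 and Lonp1), in each case with a site in all 4 libraries, against 7.8%, 13.8% and, for a site in all 4 libraries, 7.35% of all protein-coding genes. Hspa9, the mitochondrial HSP70 that passes proteins on towards HSP60, had 18 and 28 with Flag-MBD5 against 43 and 47 with Flag-MBD6. Of the 4 more distant chaperonin relatives Cct6b, Mkks, Bbs10 and Bbs12, none held a region of either protein.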

How the data were processed

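Peak lists of 4 CLIP libraries (2 of Flag-MBD5, 2 of Flag-MBD6) were analysed. The authors clipped, filtered and collapsed reads, removed ribosomal RNA, aligned the rest to mm10 with Bowtie 1.0.0 (up to 3 mismatches, reads matching over 10 places dropped, ties reported once, no splicing), split strands with SAMtools 1.16.1 and called peaks per library and strand with MACS2 (q under 0.01, reads extended to 150 bp, genome size 130000000 bp). Deposited columns used were the score, the fold enrichment (a ratio of signal to local background), −log10 p, −log10 q and the summit position.

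Summit reads and the background rate were solved from fold enrichment and p, which succeeded for 100% of peaks and, on simulated data, recovered 100% of 400 peaks. The lowest rate per strand gave the library size, an estimate. Peaks overlapping by 1 bp or more on a strand were merged. A site's 5′ end is the commonest 5′ end of its peaks, ties going to the most reads. Intervals are 95% Clopper-Pearson. Sequences come from GENCODE M21 transcripts of mm10, and protein identity from translated reading frames aligned with MAFFT 7.526. Pseudogene copies had at least 80% identity over 150 nt in BLAST 2.17.0. Python 3.11.15 with scipy 1.17.1 was used. All 10 genes were described whatever their values; values of other genes were given only for the one with most summit reads in each list. The genes and lists were chosen with earlier results of these data known. Alternatives covered thresholds, equal peak numbers, gene assignment, overlap, scaling, fold enrichment, a replicate block and leaving out libraries. Aligned codon positions and the matching of windows to pseudogenes were added after the data were seen.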

Additional observations from a re-analysis of the deposited data

How the results depend on the processing

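Leaving out each library in turn gave 13 to 15 Flag-MBD5 and 19 to 22 Flag-MBD6 peaks in the chaperonin genes, 5 to 6 genes with an MBD5 region and 8 to 9 with an MBD6 region, 12 to 15 MBD5 and 18 to 22 MBD6 regions, 10 to 12 sites in all libraries kept, a median log2 ratio of -0.79 to -0.65, and a coding share of 80% to 83.3%. With a library left out, a region needed a peak in the remaining library of that protein only. Of 69 values recomputed under the other alternatives, 63 stayed within 1.5 times the count or within the spread between replicates. Among these are all values under a stricter q and a minimum fold of 4, which every chaperonin peak already passed. Equal numbers of the best peaks per library, which removes the weakest Flag-MBD6 peaks by construction, left 10 Flag-MBD6 peaks per library, 7 MBD6 regions and 5 sites in all 4 libraries, while Flag-MBD5 kept 14 peaks and 12 regions, which turns the order of the proteins. A reciprocal overlap of 50% left 7 genes with an MBD6 region, without Cct7. Scaling by the median ratio of all sites moved the median log2 ratio from -0.76 to -0.42. The deposited fold enrichment, which depends on depth through the added read, turned it to 0.0114. Classed at the midpoint of the extended peaks, 30% of the sites in all 4 libraries lay in coding sequence. With a replicate block, the ratio taken within each replicate number and averaged, the median was -0.75. The labels tie no replicate number to a shared batch, and 2 pairs are too few to check the pairing. The stricter q and the minimum fold of 4 thus could not change any value. Another rule of gene assignment or ignoring strand changed none of the values. Peaks with fewer than 5 or 6 summit reads are not in the lists, which limits statements on absent peaks.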
